A study of Arabidopsis thaliana with 9 samples.

Results

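WRKY transcription factors are a plant family named after the WRKYGQK peptide of their DNA-binding domain, and they were followed here across 3 Arabidopsis root genotypes. The members were the 56 WRKY loci of a fixed list, all of which were present in each of the 9 count files among 28775 loci. Transcripts were measured by mRNA sequencing of roots from 2-week-old plants grown at 24 °C with 16 hours of light and 8 hours of dark. The genotypes were 35S:miR858 plants, which overexpress the microRNA miR858, 35S:rMYB83 plants, which overexpress a form of MYB83 resistant to miR858, and wild-type Col-0 plants, with 3 libraries each. The series title places the work in cyst nematode parasitism, but no label names an infection, and the values are read here as those of roots with no stated infection. In both lines the transgene is named after 35S, a viral promoter active in most plant tissues, so it is not limited to the cells in which MYB83 normally acts. The sources used here do not say whether a line stands for 1 insertion event. Nothing in the labels says that the replicates came from separate plantings, so the p-values speak only of how far these libraries scatter, which may be technical.

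WRKY proteins bind the W box, a short DNA element with the core TTGAC, and many WRKY genes carry W boxes themselves, so that members of the family control each other. MAP kinases phosphorylate several members after a pathogen pattern is sensed, and small VQ proteins bind others and change their activity. The family is known for immune responses and salicylic acid signalling, and single members act in phosphate nutrition, abiotic stress, root and seed development and the control of secondary walls. For the account below each member was placed by its best-known role: 20 in immune responses, 7 in salicylic acid signalling, 4 in nutrient supply, 5 in abiotic stress and 6 in development. The other 14 have no role used here.

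The 250 bases before the annotated gene start are printed for 4 members described at length below, of which 3 were higher in 35S:miR858 and WRKY29 was lower in both lines, taken from RefSeq's TAIR10.1 assembly and written in the direction of the gene. Capitals mark the TTGAC core on either strand (GTCAA on the printed strand when it lies on the other), extended to 6 letters where the match is a full W box, TTGACC or TTGACT. The WRKY33 window is chr2:16107985-16108234 on the plus strand, the WRKY53 window chr4:12393983-12394232 on the minus strand, the WRKY40 window chr1:30383311-30383560 on the plus strand and the WRKY29 window chr4:12291382-12291631 on the plus strand.
WRKY33: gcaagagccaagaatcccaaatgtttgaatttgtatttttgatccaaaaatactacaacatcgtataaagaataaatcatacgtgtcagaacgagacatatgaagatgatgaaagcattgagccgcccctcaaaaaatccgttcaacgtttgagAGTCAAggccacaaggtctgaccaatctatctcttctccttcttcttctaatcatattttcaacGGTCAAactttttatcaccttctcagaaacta
WRKY53: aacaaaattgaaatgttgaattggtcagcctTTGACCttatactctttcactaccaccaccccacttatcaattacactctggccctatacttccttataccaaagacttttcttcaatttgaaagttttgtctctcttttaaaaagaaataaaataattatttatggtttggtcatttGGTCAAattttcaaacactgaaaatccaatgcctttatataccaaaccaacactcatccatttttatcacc
WRKY40: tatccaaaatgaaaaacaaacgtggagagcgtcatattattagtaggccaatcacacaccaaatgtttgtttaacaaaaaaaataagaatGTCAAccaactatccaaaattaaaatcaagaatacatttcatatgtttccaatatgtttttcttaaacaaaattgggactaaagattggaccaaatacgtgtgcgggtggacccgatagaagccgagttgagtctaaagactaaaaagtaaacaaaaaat
WRKY29: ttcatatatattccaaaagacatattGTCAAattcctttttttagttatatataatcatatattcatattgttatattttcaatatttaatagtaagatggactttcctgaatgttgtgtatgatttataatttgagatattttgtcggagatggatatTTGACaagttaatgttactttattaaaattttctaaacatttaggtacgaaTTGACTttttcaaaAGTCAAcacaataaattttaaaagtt
WRKY33, WRKY53 and WRKY29 each held 2 W boxes in this window, whereas WRKY40 held 1 core and no full W box. All 56 loci matched RefSeq, and 21 of them (37.5%) had at least 1 W box in the window, against 7600 of 26709 nuclear protein-coding genes (28.5%). At least 2 W boxes were found for 10 members (17.9%) and for 6.2% of all genes. The TTGAC core, which includes the W boxes, was present upstream of 31 members (55.4%) and of 45% of all genes. Such matches describe the letters of the window and do not show binding.

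The 21-base miR858a, printed 5′ to 3′ with its seed (bases 2 to 8) in capitals, is encoded at chr1:26773695-26773715 on the minus strand. Its site in MYB83 (chr3:2577626-2577646, minus strand) is set beside the closest matches in WRKY genes that turn up below, those of WRKY2 (chr5:22782390-22782410, plus strand) and WRKY33 (chr2:16109931-16109951, plus strand). All 3 lie in coding sequence of TAIR10.1, and capitals mark the bases that form Watson-Crick pairs with miR858a.
miR858a: uUUCGUUGucuguucgaccuu
MYB83: cAGGTaGAACAGACAACGAgA
WRKY2: gttGTtGtgCAGACAACGAgt
WRKY33: AtcGTaGtgCAGACAACGAgt
The MYB83 site had 2 mismatches and 1 G:U wobble, while WRKY2 had 4 mismatches with 4 wobbles and WRKY33 had 5 mismatches with 2 wobbles. With 1 penalty point per mismatch, 0.5 per wobble and both doubled at positions 2 to 13 of miR858a, MYB83 scored 3. Every one of the 56 members scored between 7 and 12.5, and none reached the limit of 5 that 45 of 26710 genes (0.168%) met. The sources used here do not give the sequence change in the resistant MYB83 copy.

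Both transgenes were visible in their own libraries. The miR858a precursor had 120, 200 and 227 counts in 35S:miR858 and 0 in each other library, and MYB83 stood at 134, 98.0 and 102 CPM in 35S:rMYB83, against 0.948, 2.17 and 0.723 CPM in Col-0. In 35S:miR858 the MYB83 transcript was not called lower, at 1.56, 1.54 and 1.51 CPM. Its log2 fold change against Col-0 there was 0.22 (edgeR quasi-likelihood test, Benjamini-Hochberg adjusted p = 0.723). CPM is the usual depth-scaled count, here after edgeR's TMM scaling. Gene counts per library ranged between 5313656 and 10648857. Of 6 root markers 5 had enough counts to test and ESB1 too few. PYK10, a beta-glucosidase of root endoplasmic reticulum bodies, stood at 6777 to 7801 CPM in 35S:miR858, 7396 to 9512 CPM in 35S:rMYB83 and 4216 to 6252 CPM in Col-0. PIN2, a root tip auxin carrier, rose in both lines (log2 fold change 0.86, adjusted p = 0.00155 in 35S:miR858, and 0.50, adjusted p = 0.0320 in 35S:rMYB83), PYK10 rose in 35S:rMYB83 (0.61, adjusted p = 0.0408), and the other root markers did not pass. Both calls in 35S:rMYB83 held in 2 of the 9 fits that left out 1 library, that of PIN2 without Col-0 replicate 1 or 35S:rMYB83 replicate 1 and that of PYK10 without Col-0 replicate 1 or 3. The part of such tissue differences in the WRKY values was not tested. Genes of green shoot tissue took 0.0804% to 0.216% of gene counts in 35S:miR858, 0.102% to 0.789% in 35S:rMYB83 and 0.0742% to 0.46% in Col-0, and replicate 1 of 35S:rMYB83 and of Col-0 held the 2 highest shares. None of the 20 genes passed in any of the 3 comparisons. All WRKY counts together made up 0.171% to 0.208% of gene counts in 35S:miR858, 0.163% to 0.17% in 35S:rMYB83 and 0.177% to 0.2% in Col-0.

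In 35S:miR858 roots the WRKY family moved in both directions. The immune members WRKY18, WRKY33, WRKY40, WRKY46, WRKY48 and WRKY53 were higher than in Col-0, and so was the osmotic stress factor WRKY15. WRKY29, WRKY54, WRKY71, WRKY58, WRKY43, WRKY31 and 6 more were lower. Of 52 members with enough counts to test, 7 rose and 12 fell, 19 in all (36.5%), and 33 did not pass at an adjusted p under 0.05 in edgeR's quasi-likelihood test with Benjamini-Hochberg adjustment. Over all 19496 genes tested 25.1% passed, 11.6% higher and 13.5% lower. The share called among the members stood above that of all genes. Members were chosen with earlier results of these data known, so their shares in either line are given only as a description. The median log2 fold change was -0.14 over the members and -0.018 over all genes. The 3 libraries of 35S:miR858 did not overlap those of Col-0 for 22 members (42.3%), 5 above and 17 below, against 40.6% of all genes. Leaving out 35S:miR858 replicate 2 left 3 members higher, and leaving out Col-0 replicate 2 left 4. In bulk roots, less RNA per cell and fewer cells of a type cannot be told apart.

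In 35S:rMYB83 roots the calls were nearly all downward. WRKY60 alone rose, and WRKY54, WRKY29, WRKY58, WRKY43, WRKY72, WRKY2, WRKY31, WRKY20, WRKY25 and WRKY11 fell. That was 11 of 52 members (21.2%), 1 higher and 10 lower, against 16.4% of all genes called, 6.7% higher and 9.73% lower. The median log2 fold change was -0.19 over the members and 0.0065 over all genes. Libraries did not overlap those of Col-0 for 26 members (50%), 6 above and 20 below, against 34% of all genes. Same-numbered libraries of these 2 genotypes deviated together from their group means. So did an unlike-numbered pair, Col-0 replicate 3 with 35S:rMYB83 replicate 2 (correlation 0.464), so a pairing is not established. A replicate block with only these 2 groups, chosen after seeing the data, called 4 members higher and 11 lower. The 3 further rises were WRKY40 (log2 fold change 2.06, adjusted p = 0.00723), WRKY53 (0.54, adjusted p = 0.0340) and WRKY15 (0.38, adjusted p = 0.0498), and the further fall was WRKY42 (-1.53, adjusted p = 0.00771). A block fitted over all 9 libraries called 1 higher and 11 lower. The count of lower members was 6 without Col-0 replicate 3 and 5 without 35S:rMYB83 replicate 3, and that of higher members was 2 or 3 in 7 of the 9 fits that left out 1 library, namely any 1 of the Col-0 or 35S:miR858 libraries or 35S:rMYB83 replicate 1.

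**Figure D1:**
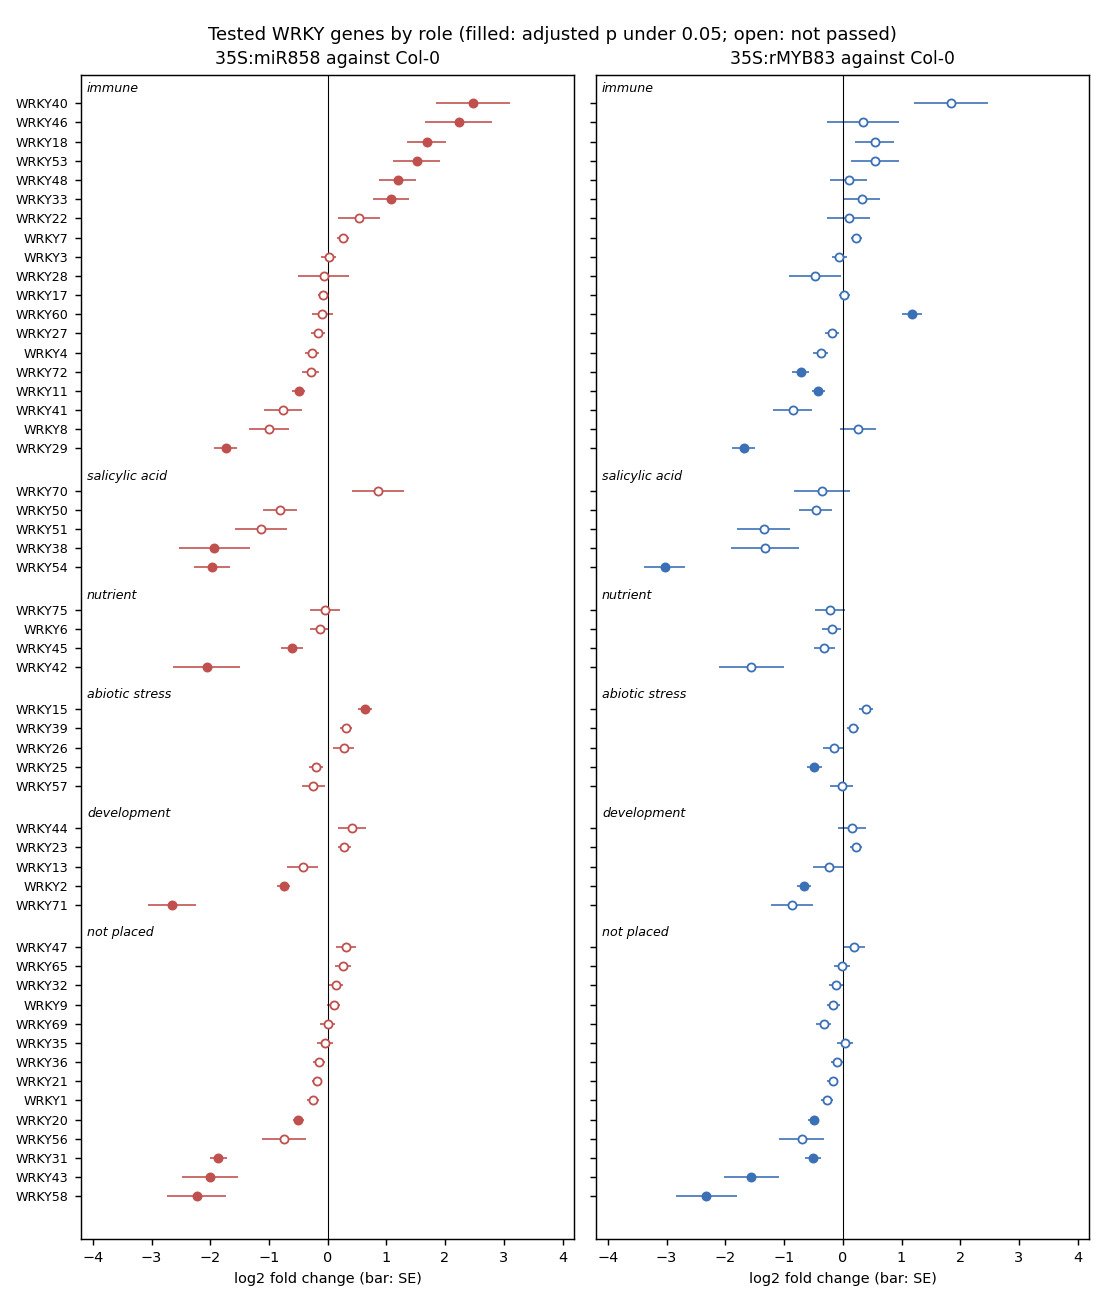
Log2 fold change against Col-0 (x axis, bars show the SE) for the 52 tested WRKY genes, grouped by role, in 35S:miR858 (left, red) and 35S:rMYB83 (right, blue). Filled points passed an adjusted p under 0.05. The values run between -2.65 and 2.48 in 35S:miR858 and between -3.04 and 1.84 in 35S:rMYB83, and the filled points right of 0 are 7 in the left panel and 1 in the right.

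The members lower in both lines numbered 8: WRKY2, WRKY11, WRKY20, WRKY29, WRKY31, WRKY43, WRKY54 and WRKY58. Both comparisons use the same 3 Col-0 libraries, so this count is given only as a description. No tested member was called higher in both by the fit without a replicate block, whose calls are used throughout. WRKY15, WRKY40 and WRKY53, higher in 35S:miR858 by that fit, were called higher in 35S:rMYB83 with the block of 2 groups described above. With such a block in 35S:miR858 against Col-0, WRKY15 kept its rise, but WRKY40 and WRKY53 did not pass. WRKY30, left out of the test for low counts, passed as higher in both lines in the fit with no low-count filter given below. Without the block, 22 members were called in at least 1 line against Col-0, and 30 in neither.

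Among the immune members, 19 of 20 were tested, and 6 rose and 2 fell in 35S:miR858 while 1 rose and 3 fell in 35S:rMYB83. The shares to read each role against are those of all genes given above, 11.6% higher and 13.5% lower in 35S:miR858 and 6.7% higher and 9.73% lower in 35S:rMYB83. WRKY18 (AT4G31800) and WRKY40 (AT1G80840) belong with WRKY60 (AT2G25000) to group IIa, whose proteins pair with each other through leucine zippers and restrain defence against powdery mildew. WRKY18 stood at 49.3, 75.8 and 32.4 CPM in 35S:miR858 roots, 23.7, 24.5 and 23.0 CPM in 35S:rMYB83 and 24.2, 11.0 and 13.4 CPM in Col-0. All 3 libraries of 35S:miR858 lay above the highest of Col-0, and the log2 fold change was 1.68 (SE 0.33, adjusted p = 0.00522). That call held in each fit that left out 1 library. In 35S:rMYB83 the WRKY18 value was 0.54 (SE 0.34, adjusted p = 0.318), and its range overlapped that of Col-0.

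WRKY40 stood at 72.9, 96.1 and 19.8 CPM in 35S:miR858 roots, 41.6, 42.1 and 37.7 CPM in 35S:rMYB83 and 21.1, 3.26 and 9.16 CPM in Col-0. Replicate 3 was the low library of 35S:miR858 and lay below the highest Col-0 library, while all 3 libraries of 35S:rMYB83 lay above Col-0. The log2 fold change was 2.48 in 35S:miR858 (SE 0.63, adjusted p = 0.0180) and 1.84 in 35S:rMYB83 (SE 0.63, adjusted p = 0.0781, or 0.00723 with the replicate block of 2 groups). The call in 35S:miR858 did not hold without Col-0 replicate 3 or 35S:miR858 replicate 2 (adjusted p up to 0.0690). It also did not hold with the replicate block of 2 groups. WRKY40 passed in 35S:rMYB83 without Col-0 replicate 1 or without 35S:miR858 replicate 3.

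WRKY60, the third of the group, was called in the other line. It stood at 49.97, 41.3 and 40.2 CPM in 35S:rMYB83, 18.8, 19.3 and 16.0 CPM in 35S:miR858 roots and 14.9, 24.4 and 18.6 CPM in Col-0. All 3 libraries of 35S:rMYB83 lay above every other library. The log2 fold change over Col-0 was 1.18 in 35S:rMYB83 (SE 0.17, adjusted p = 0.00194) and -0.09 in 35S:miR858 (SE 0.18, adjusted p = 0.743). The rise in 35S:rMYB83 passed in each of the 9 fits that left out 1 library.

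WRKY33 (AT2G38470), a substrate of the MAP kinases MPK3 and MPK6 needed for camalexin synthesis and resistance to Botrytis, stood at 285, 346 and 124 CPM in 35S:miR858 roots, 157, 157 and 135 CPM in 35S:rMYB83 and 145, 94.2 and 118 CPM in Col-0. Replicates 1 and 2 of 35S:miR858 were far above Col-0 and replicate 3 was inside its range. The log2 fold change was 1.08 in 35S:miR858 (SE 0.31, adjusted p = 0.0295) and 0.33 in 35S:rMYB83 (SE 0.31, adjusted p = 0.526). WRKY53 (AT4G23810) and WRKY46 (AT2G46400), group III factors of basal resistance to Pseudomonas, showed the same split among libraries. WRKY53 stood at 31.7, 47.5 and 11.2 CPM in 35S:miR858 roots, 15.9, 14.6 and 15.4 CPM in 35S:rMYB83 and 11.1, 8.78 and 11.6 CPM in Col-0, which gave a log2 fold change of 1.52 in 35S:miR858 (SE 0.40, adjusted p = 0.0207). WRKY46 stood at 21.1, 41.7 and 6.99 CPM in 35S:miR858 roots, 6.06, 5.01 and 7.49 CPM in 35S:rMYB83 and 7.32, 2.54 and 4.82 CPM in Col-0, a log2 fold change of 2.23 in 35S:miR858 (SE 0.57, adjusted p = 0.0178). In both genes replicate 3 of 35S:miR858 lay within the Col-0 range, and the values in 35S:rMYB83 did not pass, except that WRKY53 did with the replicate block of 2 groups (adjusted p = 0.0340). WRKY48 (AT5G49520), which restrains basal defence against Pseudomonas, stood at 72.5, 70.5 and 30.9 CPM in 35S:miR858 roots, 30.1, 25.4 and 26.2 CPM in 35S:rMYB83 and 34.6, 19.8 and 21.3 CPM in Col-0, a log2 fold change of 1.19 in 35S:miR858 (SE 0.31, adjusted p = 0.0195). The highest Col-0 library again exceeded replicate 3 of 35S:miR858. WRKY33, WRKY48 and WRKY53 lost their calls without Col-0 replicate 2 or 3 or without 35S:miR858 replicate 1 or 2, and WRKY46 without Col-0 replicate 2 or 3 or 35S:miR858 replicate 2, with adjusted p up to 0.117 for WRKY33. Without 35S:miR858 replicate 3 all 7 risen members passed. With a replicate block of only 35S:miR858 and Col-0, WRKY33, WRKY40, WRKY46 and WRKY53 did not pass, while WRKY18 and WRKY48 did. WRKY33 also did not pass in a fit of only these 2 groups without a block.

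**Figure D2:**
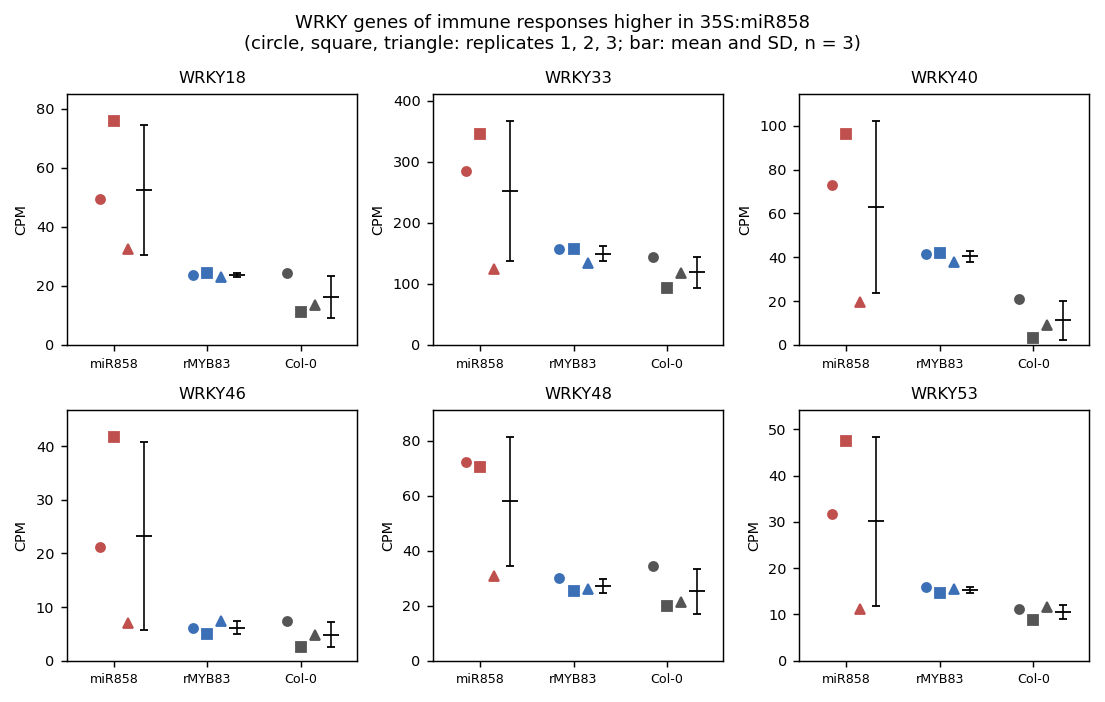
Level in CPM (y axis) of the 6 immune WRKY genes that rose in 35S:miR858, by genotype (35S:miR858 red, 35S:rMYB83 blue, Col-0 grey), with circles, squares and triangles for replicates 1, 2 and 3 and bars for the mean and SD. Replicate 3 is the lowest of the 35S:miR858 libraries in all 6 panels, at 124 CPM for WRKY33 where the other 35S:miR858 libraries stand at 285 and 346 CPM.

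A list of 5 genes induced by touch and wounding was read beside these members. Their summed level was 349 to 713 CPM in 35S:miR858, 273 to 332 CPM in 35S:rMYB83 and 111 to 299 CPM in Col-0, and replicate 3 was the lowest library of 35S:miR858 and replicate 1 the highest of Col-0. In 35S:miR858, TCH3 (AT2G41100; log2 fold change 2.09, adjusted p = 0.00120), ZAT10 (AT1G27730; 1.88, adjusted p = 0.00624) and ZAT12 (AT5G59820; 1.16, adjusted p = 0.0220) rose, while TCH2 (AT5G37770; 0.72, adjusted p = 0.112) and TCH4 (AT5G57560; 1.4, adjusted p = 0.111) did not pass. In 35S:rMYB83 TCH3 alone passed (1.06, adjusted p = 0.0435). The shares called were 60% against 25.1% of all genes in 35S:miR858 and 20% against 16.4% in 35S:rMYB83. The ZAT12 call was lost without Col-0 replicate 2 or 3 or 35S:miR858 replicate 1 or 2, and the TCH3 call in 35S:rMYB83 held only without Col-0 replicate 1 or 35S:miR858 replicate 2. Their part in the WRKY rises was not tested.

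WRKY29 (AT4G23550) and WRKY11 (AT4G31550) were the immune members that fell in both lines. WRKY29, a factor downstream of the flagellin MAP kinase cascade, stood at 21.2, 16.1 and 12.3 CPM in 35S:miR858 roots, 13.4, 18.1 and 19.3 CPM in 35S:rMYB83 and 56.3, 50.1 and 58.8 CPM in Col-0. Every library of both lines lay far below every Col-0 library, and WRKY29 had a log2 fold change of -1.74 in 35S:miR858 (SE 0.19, adjusted p = 0.000247) and -1.69 in 35S:rMYB83 (SE 0.19, adjusted p = 0.000529), and both calls held in each fit that left out 1 library. WRKY29 shares 251 exon bases with AT4G23560 on the other strand, and the counting is not stated to use strand. That gene averaged 0.247, 0.481 and 0.787 CPM in 35S:miR858, 35S:rMYB83 and Col-0. WRKY22 (AT4G01250), the usual partner of WRKY29 in that cascade, stood at 0.54 in 35S:miR858 (adjusted p = 0.316) and 0.10 in 35S:rMYB83 (adjusted p = 0.893) on the log2 scale.

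WRKY11, which with WRKY17 (AT2G24570) restrains basal resistance, stood at 59.5, 76.2 and 63.1 CPM in 35S:miR858 roots, 65.1, 76.9 and 67.1 CPM in 35S:rMYB83 and 99.2, 88.6 and 91.9 CPM in Col-0. Neither line overlapped Col-0, and the fitted log2 difference was -0.49 in 35S:miR858 (SE 0.11, adjusted p = 0.00990) and -0.42 in 35S:rMYB83 (SE 0.11, adjusted p = 0.0301), and the call in 35S:rMYB83 did not hold without any 1 of the Col-0 libraries or without 35S:rMYB83 replicate 1 or 3 (adjusted p up to 0.0968). WRKY17 did not pass in either line, with log2 values of -0.08 (SE 0.09, adjusted p = 0.527) in 35S:miR858 and 0.03 (SE 0.09, adjusted p = 0.869) in 35S:rMYB83.

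WRKY72 (AT5G15130), which contributes to basal resistance against root-knot nematodes in tomato and Arabidopsis, fell in 35S:rMYB83. It stood at 58.9, 68.0 and 50.8 CPM there, 83.3, 90.5 and 65.2 CPM in 35S:miR858 roots and 88.9, 96.6 and 107 CPM in Col-0. The 35S:rMYB83 libraries lay below all of Col-0, with a fitted log2 difference of -0.72 (SE 0.15, adjusted p = 0.00886), while the 35S:miR858 value was -0.29 (SE 0.14, adjusted p = 0.171). The call held in each fit that left out 1 library. The remaining tested immune members passed in neither line. They were WRKY3 (AT2G03340), WRKY4 (AT1G13960), WRKY7 (AT4G24240), WRKY8 (AT5G46350), WRKY17, WRKY22, WRKY27 (AT5G52830), WRKY28 (AT4G18170) and WRKY41 (AT4G11070). Of these, WRKY8, known from responses to viruses and Botrytis, had the largest value in 35S:miR858 at -1.01 (adjusted p = 0.0564), and WRKY41 the largest in 35S:rMYB83 at -0.85 (adjusted p = 0.115).

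**Figure D3:**
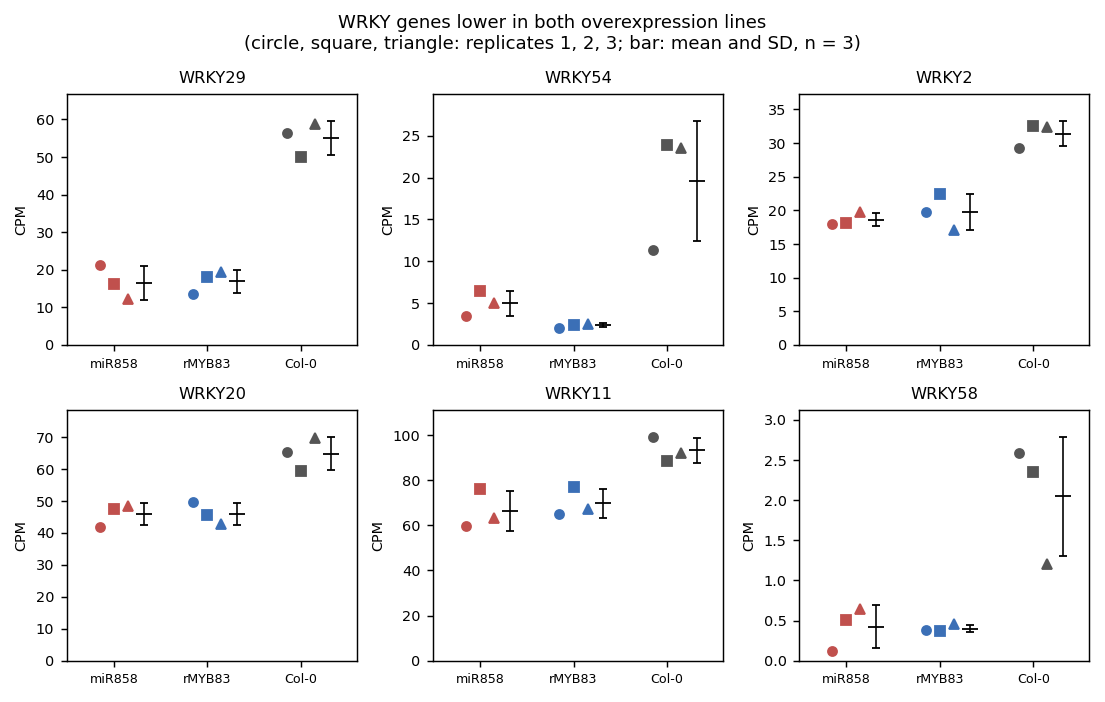
Level in CPM (y axis) of 6 WRKY genes lower in both lines, by genotype (35S:miR858 red, 35S:rMYB83 blue, Col-0 grey), with circles, squares and triangles for replicates 1, 2 and 3 and bars for the mean and SD. In all 6 panels no library of either line reaches the lowest Col-0 library.

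Among the salicylic acid members, 2 of 5 tested fell in 35S:miR858 and 1 of 5 in 35S:rMYB83, against 13.5% and 9.73% of all genes, and none rose. WRKY54 (AT2G40750) acts with WRKY70 (AT3G56400) in salicylic acid signalling and leaf senescence. It stood at 3.48, 6.40 and 5.06 CPM in 35S:miR858 roots, 2.08, 2.45 and 2.50 CPM in 35S:rMYB83 and 11.3, 23.9 and 23.5 CPM in Col-0. Both lines lay below all Col-0 libraries, of which replicate 1 was the lowest. On the log2 scale the difference was -1.97 in 35S:miR858 (SE 0.31, adjusted p = 0.00152) and -3.04 in 35S:rMYB83 (SE 0.34, adjusted p = 0.000459), and both calls held in each fit that left out 1 library. WRKY70 stood at 7.32, 13.2 and 11.7 CPM in 35S:miR858 roots, 4.73, 5.75 and 3.4 CPM in 35S:rMYB83 and 5.77, 2.17 and 10.1 CPM in Col-0. Its groups overlapped, and the log2 values were 0.86 in 35S:miR858 (adjusted p = 0.195) and -0.36 in 35S:rMYB83 (adjusted p = 0.666).

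WRKY38 (AT5G22570), a repressor of basal defence that is induced by salicylic acid, was scarce. It averaged 0.452 ± 0.331 CPM in 35S:miR858, 0.667 ± 0.276 CPM in 35S:rMYB83 and 1.75 ± 0.887 CPM in Col-0 (SD, n = 3). Its log2 fold change was -1.93 in 35S:miR858 (SE 0.60, adjusted p = 0.0406), and the call held in only 2 of the 9 fits that left out 1 library. It was lost without Col-0 replicate 2 or 3, 35S:miR858 replicate 1 or 3 or any 1 of the 35S:rMYB83 libraries. WRKY50 (AT5G26170) and WRKY51 (AT5G64810), which restrain jasmonate signalling under salicylic acid, had log2 values of -0.81 (adjusted p = 0.0655) and -1.14 (adjusted p = 0.0857) in 35S:miR858 and of -0.46 (adjusted p = 0.311) and -1.35 (adjusted p = 0.0724) in 35S:rMYB83.

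Among the 4 nutrient members, 2 fell in 35S:miR858 and none passed in 35S:rMYB83 without the replicate block. WRKY42 (AT4G04450), which acts on the phosphate transporter genes PHO1 (AT3G23430) and PHT1;1 (AT5G43350), averaged 1.31 ± 0.942 CPM in 35S:miR858, 1.79 ± 0.586 CPM in 35S:rMYB83 and 5.36 ± 3.37 CPM in Col-0 (SD, n = 3). Replicate 2 of Col-0 stood apart at 9.24 CPM, yet no library of either line reached the lowest Col-0 library. The log2 fold change was -2.06 in 35S:miR858 (SE 0.57, adjusted p = 0.0248), lost without Col-0 replicate 2 or 35S:miR858 replicate 1 or 3, and -1.56 in 35S:rMYB83 (SE 0.55, adjusted p = 0.0860, or 0.00771 with the replicate block of 2 groups). WRKY45 (AT3G01970), an activator of PHT1;1, averaged 21.0 ± 2.90 CPM in 35S:miR858, 25.7 ± 2.93 CPM in 35S:rMYB83 and 32.1 ± 7.33 CPM in Col-0 (SD, n = 3). Its log2 fold change in 35S:miR858 was -0.61 (SE 0.18, adjusted p = 0.0333), with groups that overlapped, and the call was lost without Col-0 replicate 1 or 3 or 35S:miR858 replicate 1 or 2. WRKY6 (AT1G62300) and WRKY75 (AT5G13080) did not pass in either line, with log2 values between -0.23 and -0.05.

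Among the 5 abiotic stress members, 1 rose in 35S:miR858 and 1 fell in 35S:rMYB83. WRKY15 (AT2G23320), a factor of salt and osmotic stress responses, stood at 68.7, 79.9 and 68.1 CPM in 35S:miR858 roots, 68.9, 54.9 and 59.3 CPM in 35S:rMYB83 and 45.8, 41.8 and 52.2 CPM in Col-0. Both lines lay above every Col-0 library, with log2 values of 0.63 in 35S:miR858 (SE 0.12, adjusted p = 0.00415), which held in each fit that left out 1 library, and 0.39 in 35S:rMYB83 (SE 0.12, adjusted p = 0.0534, or 0.0498 with the replicate block of 2 groups). WRKY25 (AT2G30250), a heat and salt tolerance factor, stood at 35.4, 45.7 and 35.6 CPM in 35S:rMYB83, 46.3, 46.0 and 50.04 CPM in 35S:miR858 roots and 47.3, 59.2 and 57.2 CPM in Col-0. The 35S:rMYB83 libraries lay just below Col-0, with a fitted log2 difference of -0.48 (SE 0.13, adjusted p = 0.0276). That call was lost without Col-0 replicate 2 or 3 or 35S:rMYB83 replicate 1 or 3. The heat factors WRKY26 (AT5G07100) and WRKY39 (AT3G04670) and the drought factor WRKY57 (AT1G69310) did not pass in either line, with log2 values between -0.25 and 0.31. WRKY39 came close in 35S:miR858 (adjusted p = 0.0534 in edgeR's fit), whose libraries all lay above Col-0. There it passed with DESeq2, with DESeq2-style size factors in edgeR and with the shoot-tissue covariate. It also passed with either replicate block and without 35S:miR858 replicate 1.

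Among the developmental members, 2 of 5 tested fell in 35S:miR858 and 1 of 5 in 35S:rMYB83. WRKY2 (AT5G56270), which acts in the polarity of the zygote and in pollen, stood at 18.01, 18.2 and 19.7 CPM in 35S:miR858 roots, 19.7, 22.5 and 17.1 CPM in 35S:rMYB83 and 29.2, 32.5 and 32.4 CPM in Col-0. Neither line overlapped Col-0, and WRKY2 fell with log2 fold changes of -0.75 in 35S:miR858 (SE 0.12, adjusted p = 0.00148) and -0.67 in 35S:rMYB83 (SE 0.12, adjusted p = 0.00448), and both calls held in each fit that left out 1 library. WRKY71 (AT1G29860), a promoter of shoot branching and flowering, stood at 0.960, 0.512 and 1.18 CPM in 35S:miR858 roots, 4.92, 2.69 and 2.04 CPM in 35S:rMYB83 and 5.69, 4.26 and 7.23 CPM in Col-0. Only the 35S:miR858 libraries were clear of Col-0, with a fitted log2 difference of -2.65 (SE 0.41, adjusted p = 0.00148), while the 35S:rMYB83 value was -0.87 (SE 0.36, adjusted p = 0.135).

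WRKY23 (AT2G47260), which cyst nematodes are known to induce at their feeding sites and which acts in auxin-dependent root growth, stood at 18.01, 18.9 and 21.3 CPM in 35S:miR858 roots, 18.5, 18.1 and 19.4 CPM in 35S:rMYB83 and 15.8, 15.2 and 16.9 CPM in Col-0. All libraries of both lines lay above Col-0, by log2 values of 0.29 (SE 0.10, adjusted p = 0.0723) and 0.23 (SE 0.11, adjusted p = 0.173), neither of which passed. WRKY13 (AT4G39410), an activator of stem secondary walls through NST2 (AT3G61910), averaged 1.79 ± 0.435 CPM in 35S:miR858, 2.03 ± 0.198 CPM in 35S:rMYB83 and 2.40 ± 0.111 CPM in Col-0 (SD, n = 3). It did not pass, with log2 values of -0.43 (adjusted p = 0.274) in 35S:miR858 and -0.24 (adjusted p = 0.588) in 35S:rMYB83. WRKY44 (AT2G37260), known as TTG2 from trichomes and seed coats, had log2 values of 0.42 (adjusted p = 0.227) and 0.16 (adjusted p = 0.701).

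Of the 14 members with no placed role, 4 fell in each line, and these were the same genes: WRKY20 (AT4G26640), WRKY31 (AT4G22070), WRKY43 (AT2G46130) and WRKY58 (AT3G01080). WRKY31 stood at 11.6, 10.9 and 10.7 CPM in 35S:miR858 roots, 29.1, 31.7 and 24.3 CPM in 35S:rMYB83 and 33.4, 41.5 and 46.0 CPM in Col-0. The libraries of the 3 genotypes did not overlap. WRKY31 had a log2 fold change of -1.86 in 35S:miR858 (SE 0.15, adjusted p = 4.66e-05), the smallest adjusted p among the members, and -0.51 in 35S:rMYB83 (SE 0.14, adjusted p = 0.0345). The second call was lost without Col-0 replicate 2 or 3 or 35S:rMYB83 replicate 1 or 3. WRKY20 stood at 42.0, 47.4 and 48.4 CPM in 35S:miR858 roots, 49.6, 45.6 and 42.7 CPM in 35S:rMYB83 and 65.4, 59.4 and 69.8 CPM in Col-0. Its log2 fold change was -0.50 in both lines (SE 0.10 each, adjusted p = 0.00556 in 35S:miR858 and 0.00837 in 35S:rMYB83).

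WRKY58 and WRKY43 were scarce. WRKY58 stood at 0.120, 0.512 and 0.646 CPM in 35S:miR858 roots, 0.379, 0.367 and 0.454 CPM in 35S:rMYB83 and 2.59, 2.35 and 1.21 CPM in Col-0, with log2 fold changes of -2.23 (SE 0.50, adjusted p = 0.00925) and -2.33 (SE 0.52, adjusted p = 0.0139). WRKY43 stood at 0.360, 0.896 and 0.646 CPM in 35S:miR858 roots, 0.946, 1.35 and 0.340 CPM in 35S:rMYB83 and 1.90, 2.63 and 3.25 CPM in Col-0, with log2 fold changes of -2.0 (SE 0.48, adjusted p = 0.0134) and -1.56 (SE 0.47, adjusted p = 0.0499). No library of either line reached the lowest Col-0 library for these 2 genes. In 35S:rMYB83 the WRKY58 call was lost without replicate 2 or 3 of that line, and the WRKY43 call held in 2 of the 9 fits that left out 1 library, those without Col-0 replicate 1 or 35S:rMYB83 replicate 2. The other 10 unplaced members, WRKY1 (AT2G04880), WRKY9 (AT1G68150), WRKY21 (AT2G30590), WRKY32 (AT4G30935), WRKY35 (AT2G34830), WRKY36 (AT1G69810), WRKY47 (AT4G01720), WRKY56 (AT1G64000), WRKY65 (AT1G29280) and WRKY69 (AT3G58710), did not pass in either line. WRKY56 had the largest values among them, -0.75 (adjusted p = 0.179) in 35S:miR858 and -0.70 (adjusted p = 0.248) in 35S:rMYB83.

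Compared directly, 35S:rMYB83 and 35S:miR858 roots differed in 2 of 52 members (3.85%), both higher in 35S:rMYB83, against 4.05% of all genes, 2.5% higher and 1.54% lower. The share among the members was close to that of all genes. Groups did not overlap for 11 members (21.2%), 4 above and 7 below, against 24.8% of all genes. WRKY31 was higher in 35S:rMYB83 by a log2 difference of 1.36 (SE 0.15, adjusted p = 0.00184), at 28.4 ± 3.76 CPM in 35S:rMYB83 and 11.1 ± 0.519 CPM in 35S:miR858 (SD, n = 3 each). WRKY60 was higher by 1.28 (SE 0.18, adjusted p = 0.00447), at 43.8 ± 5.35 CPM in 35S:rMYB83 and 18.1 ± 1.78 CPM in 35S:miR858 (SD, n = 3 each). Both passed in each fit that left out 1 library. WRKY71 came next, with a value of 1.78 (SE 0.44, adjusted p = 0.0546), and passed without 35S:rMYB83 replicate 3. It also passed with DESeq2, with library totals alone, with no low-count filter and with the replicate block over all 9 libraries.

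The immune members that rose in 35S:miR858 against Col-0 did not pass between the 2 lines in edgeR's fit of all 9 libraries. Their log2 values in 35S:rMYB83 against 35S:miR858 were -1.14 for WRKY18 (adjusted p = 0.0915), -0.75 for WRKY33 (adjusted p = 0.235), -0.63 for WRKY40 (adjusted p = 0.622), -1.90 for WRKY46 (adjusted p = 0.107), -1.09 for WRKY48 (adjusted p = 0.0916) and -0.97 for WRKY53 (adjusted p = 0.234). DESeq2 called WRKY18 (-1.15, adjusted p = 0.0114), WRKY46 (-1.91, adjusted p = 0.00954) and WRKY48 (-1.09, adjusted p = 0.0112) lower in 35S:rMYB83 than in 35S:miR858, and the replicate block with only the 2 lines called WRKY18 (-1.06, adjusted p = 0.0479). Without 35S:miR858 replicate 3, 5 members were lower in 35S:rMYB83 than in 35S:miR858, namely WRKY18, WRKY33, WRKY46, WRKY48 and WRKY53. Without Col-0 replicate 1, which enters only through the shared spread and scaling, 2 were lower, WRKY18 and WRKY54.

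**Figure D4:**
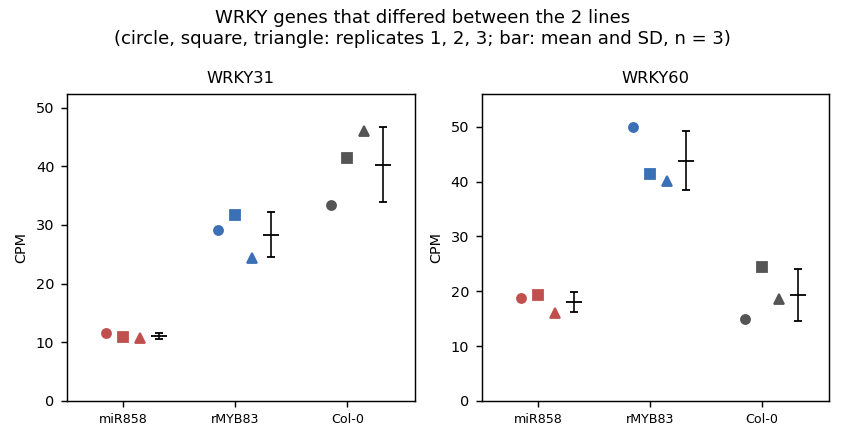
Level in CPM (y axis) of WRKY31 (left) and WRKY60 (right) by genotype (35S:miR858 red, 35S:rMYB83 blue, Col-0 grey), with circles, squares and triangles for replicates 1, 2 and 3 and bars for the mean and SD. WRKY31 is lowest in 35S:miR858, at 10.7 to 11.6 CPM, and WRKY60 is highest in 35S:rMYB83, at 40.2 to 49.97 CPM.

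WRKY30 (AT5G24110), WRKY55 (AT2G40740), WRKY62 (AT5G01900) and WRKY12 (AT2G44745) had too few counts to test, and all 4 carry a W box in the upstream window. WRKY30, an early defence gene, had 8, 9 and 9 counts in 35S:miR858, 5, 11 and 11 in 35S:rMYB83 and 2, 2 and 2 in Col-0. Per effective library size, that is depth after TMM scaling, the summed counts stood 5.27 times higher in 35S:miR858 (95% exact interval 2.12 to 15.7) and 6.25 times higher in 35S:rMYB83 (2.53 to 18.5) than in Col-0. These intervals cover counting error only. In the edgeR quasi-likelihood fit with no low-count filter WRKY30 passed in both lines, with Benjamini-Hochberg adjusted p = 0.00601 and 0.00531. WRKY55, a neighbour of WRKY54 on chromosome 2, had no counts in 35S:miR858, 1, 0 and 0 counts in 35S:rMYB83 and 1, 7 and 8 in Col-0. In 35S:miR858 the exact interval of its ratio began at 3.17 times lower, and in 35S:rMYB83 it was 11.5 times lower (interval 1.79 to 483). WRKY62, a close relative of WRKY38, had 3, 8 and 7 counts in 35S:miR858, 2, 5 and 5 in 35S:rMYB83 and 12, 8 and 29 in Col-0, where replicate 3 was high. Its summed counts stood 2.24 times lower in 35S:miR858 (interval 1.28 to 4.08) and 2.94 times lower in 35S:rMYB83 (interval 1.54 to 6.07). In the fit with no low-count filter, which also takes in the spread between libraries, neither WRKY55 (adjusted p = 0.0521 in 35S:miR858 and 0.168 in 35S:rMYB83) nor WRKY62 (adjusted p = 0.211 and 0.147) passed. WRKY12, a repressor of pith secondary walls in stems, had 2 counts in 1 library of 35S:rMYB83, 2 in 1 library of Col-0 and 0 elsewhere.

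Per kilobase of exon the members spanned several orders of magnitude. WRKY65 was the most abundant in all 3 genotypes, at 140 ± 16.4 CPM per kb in 35S:miR858, 116 ± 5.04 in 35S:rMYB83 and 117 ± 22.0 in Col-0 (SD, n = 3). WRKY33 ranked 2 in each, at 124 ± 56.6, 73.7 ± 6.17 and 58.7 ± 12.4 CPM per kb in 35S:miR858, 35S:rMYB83 and Col-0. In 35S:miR858 the difference between WRKY65 and WRKY33 was smaller than the spread of WRKY33. The rank of some members differed widely between genotypes. WRKY40 ranked 5 of 56 in 35S:miR858, 7 in 35S:rMYB83 and 33 in Col-0, and WRKY29 ranked 30 in 35S:miR858, 29 in 35S:rMYB83 and 7 in Col-0. WRKY46 ranked 24 in 35S:miR858, 37 in 35S:rMYB83 and 43 in Col-0.

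Spread between replicates also differed among the members. The biological coefficient of variation, edgeR's estimate of the spread beyond counting error, was highest for WRKY40 at 51.7% and lowest for WRKY21 at 9.33%. Its median was 16.0% over the tested members and 13.8% over all tested genes. WRKY46 at 45.9%, WRKY42 at 44.2%, WRKY70 at 38.1%, WRKY38 at 35.7% and WRKY53 at 33.4% were also among the variable members. The members WRKY17, WRKY21, WRKY23 and WRKY7 were the steadiest, between 9.33% and 10.2%.

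**Figure D5:**
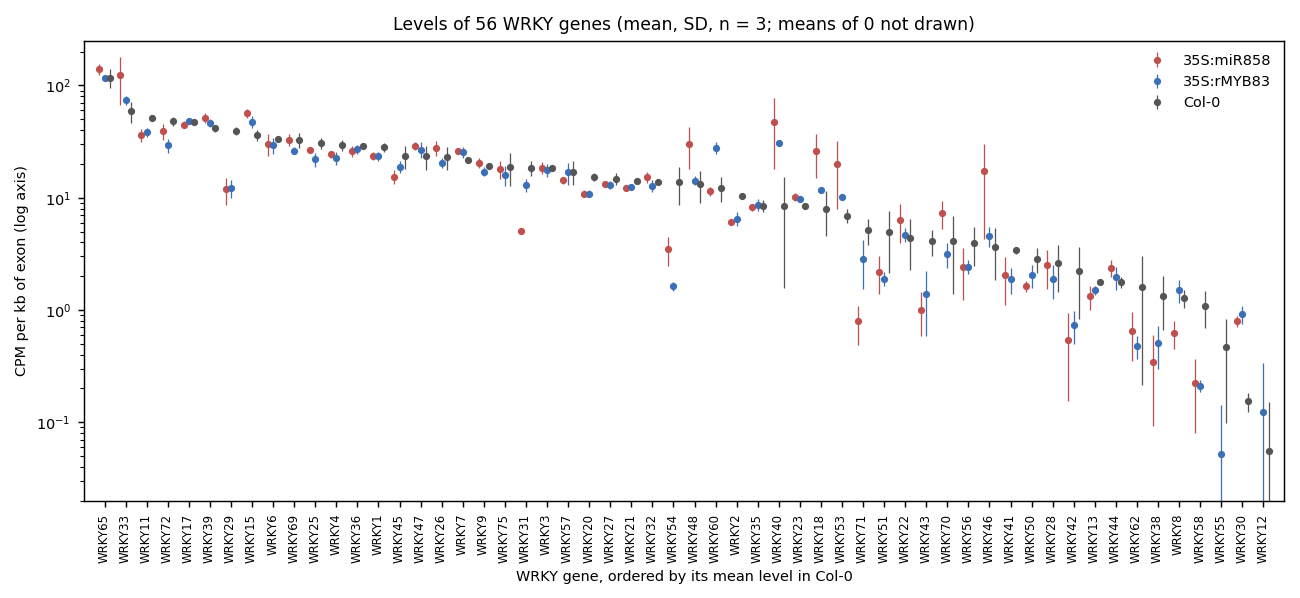
Mean level (y axis, CPM per kb of exon, log scale) of the 56 WRKY genes, ordered by their level in Col-0, for 35S:miR858 (red), 35S:rMYB83 (blue) and Col-0 (grey), with the SD of 3 libraries and means of 0 not drawn. WRKY65 is at the left at 116 to 140 CPM per kb. WRKY29 and WRKY54 show both line values well under their Col-0 points, and WRKY31 shows this for the red point only. WRKY40, WRKY18, WRKY53 and WRKY46 show the red point above the others.

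The W boxes upstream of the members were spread over rising and falling genes. In 35S:miR858, W boxes stood before 3 of the 7 that rose (WRKY15, WRKY33 and WRKY53), 4 of the 12 that fell (WRKY11, WRKY20, WRKY29 and WRKY45) and 10 of the 33 that did not pass. In 35S:rMYB83, W boxes stood before 0 of the 1 that rose, 5 of the 10 that fell (WRKY11, WRKY20, WRKY25, WRKY29 and WRKY72) and 12 of the 41 that did not pass. Structural groups, defined by the number of WRKY domains and the type of zinc finger, each held only a few calls. The shares of all genes to read them against are 11.6% higher and 13.5% lower in 35S:miR858. In 35S:rMYB83 they are 6.7% higher and 9.73% lower. In 35S:miR858, group I had 1 of 11 members higher (WRKY33) and 3 lower (WRKY2, WRKY20 and WRKY58), and group III had 2 of 6 tested higher (WRKY46 and WRKY53) and 2 lower (WRKY38 and WRKY54). Group IIa had 2 of 3 higher in 35S:miR858 (WRKY18 and WRKY40) and 1 of 3 in 35S:rMYB83 (WRKY60), with none lower. Group IIb had 2 of 7 lower in each line, WRKY31 and WRKY42 in 35S:miR858 and WRKY31 and WRKY72 in 35S:rMYB83. In 35S:miR858, group IIc had 1 of 13 tested higher and 3 lower, group IId 1 of 6 higher and 1 lower, and group IIe 1 of 6 lower. In 35S:rMYB83, group I had 4 of 11 lower, and groups III, IIc, IId and IIe had 1 lower each.

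Genes that act around WRKY proteins were read from lists chosen with earlier results of these data known. Of 10 MAP kinase cascade genes, 2 fell in 35S:miR858 and 3 in 35S:rMYB83 and none rose. That is 20% in 35S:miR858, below the 25.1% of all genes called, and 30% in 35S:rMYB83, against 16.4% of all genes. Library by library, MKK1 (AT4G26070) and MPK11 (AT1G01560) lay below every Col-0 library in both lines. MKK1, a kinase of the MEKK1 (AT4G08500) module, averaged 9.62 ± 0.377 CPM in 35S:miR858, 10.2 ± 1.15 CPM in 35S:rMYB83 and 18.7 ± 6.13 CPM in Col-0 (SD, n = 3), and fell by 0.95 (adjusted p = 0.00894) and 0.86 (adjusted p = 0.0211) on the log2 scale. MPK11, a kinase activated by flagellin, averaged 0.674 ± 0.209, 0.655 ± 0.222 and 2.13 ± 0.580 CPM in 35S:miR858, 35S:rMYB83 and Col-0, and fell by 1.63 (adjusted p = 0.0119) and 1.64 (adjusted p = 0.0191). MEKK1 fell in 35S:rMYB83 by 0.37 (adjusted p = 0.0443). The calls in 35S:rMYB83 each depended on single libraries: MKK1 was lost without 35S:rMYB83 replicate 1 or 2, MPK11 without those or Col-0 replicate 2 or 3, and MEKK1 without Col-0 replicate 2 or 3 or any 1 of the 35S:rMYB83 libraries. The WRKY33 kinases MPK3 (AT3G45640) and MPK6 (AT2G43790) did not pass, with log2 values of 0.56 (adjusted p = 0.0756) and 0.13 (adjusted p = 0.386) in 35S:miR858 and of -0.15 (adjusted p = 0.670) and 0.11 (adjusted p = 0.486) in 35S:rMYB83.

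Of 10 tested genes of VQ proteins, 3 rose and 1 fell in 35S:miR858 and none passed in 35S:rMYB83, which is 40% against 25.1% of all genes in 35S:miR858 and 0% against 16.4% in 35S:rMYB83. The VQ gene at AT2G22880 stood at 16.0, 18.7 and 6.46 CPM in 35S:miR858 roots, 8.33, 5.75 and 5.56 CPM in 35S:rMYB83 and 4.65, 2.26 and 4.1 CPM in Col-0. Its 35S:miR858 libraries lay above all of Col-0, with a fitted log2 difference of 1.89 (SE 0.40, adjusted p = 0.00722), which held in each fit that left out 1 library. CAMBP25 (AT2G41010) rose by 1.0 (adjusted p = 0.0371), MKS1 (AT3G18690), which binds WRKY33 and MPK4 (AT4G01370), rose by 0.63 (adjusted p = 0.0424), and MVQ1 (AT1G28280) fell by 0.38 (adjusted p = 0.0281). CAMBP25 kept its call in 3 of the 9 fits that left out 1 library, those without Col-0 replicate 1, 35S:miR858 replicate 3 or 35S:rMYB83 replicate 1. MKS1 kept its call in 2, those without 35S:miR858 replicate 1 or 3. MVQ1 lost it without Col-0 replicate 3 or any 1 of the 35S:miR858 libraries. Between the lines SIB1 (AT3G56710), a partner of WRKY33, was lower in 35S:rMYB83 by a log2 fold change of -1.38 (adjusted p = 0.0443), a call that held only without Col-0 replicate 1 or 2.

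Of 17 tested genes reported as WRKY targets, 4 rose and 4 fell in 35S:miR858 and 2 rose and 2 fell in 35S:rMYB83. These shares are 47.1% against 25.1% of all genes in 35S:miR858 and 23.5% against 16.4% in 35S:rMYB83. CYP71A12 (AT2G30750), an enzyme of indolic defence compounds, stood at 0.840, 2.56 and 2.91 CPM in 35S:miR858 roots, 7.57, 3.91 and 7.94 CPM in 35S:rMYB83 and 124, 154 and 228 CPM in Col-0. CYP82C2 (AT4G31970), an enzyme of 4-hydroxyindole-3-carbonyl nitrile synthesis, stood at 0, 0.512 and 0.538 CPM in 35S:miR858 roots, 0, 0.734 and 0.794 CPM in 35S:rMYB83 and 26.1, 38.4 and 56.8 CPM in Col-0. Both enzymes were far below Col-0 in every library of both lines. CYP71A12 has a close copy, CYP71A13, and how the authors' counting treated reads that match both is not stated. CYP71A13 did not pass, with log2 values of -2.16 in 35S:miR858 (adjusted p = 0.0708) and -0.83 in 35S:rMYB83 (adjusted p = 0.474). CYP71A12 fell by 6.31 on the log2 scale in 35S:miR858 (adjusted p = 2.58e-05) and its log2 fold change was -4.71 in 35S:rMYB83 (adjusted p = 7.90e-05). CYP82C2 had log2 fold changes of -6.78 in 35S:miR858 (adjusted p = 5.86e-05) and -6.09 in 35S:rMYB83 (adjusted p = 0.000132). PAD3 (AT3G26830), the last enzyme of camalexin synthesis and a target of WRKY33, did not pass, at -0.97 in 35S:miR858 (adjusted p = 0.0915) and -0.68 in 35S:rMYB83 (adjusted p = 0.266).

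FRK1 (AT2G19190), a receptor kinase gene activated through WRKY29, stood at 3.12, 4.35 and 3.01 CPM in 35S:miR858 roots, 5.49, 6.36 and 7.83 CPM in 35S:rMYB83 and 7.58, 5.98 and 8.80 CPM in Col-0. It fell in 35S:miR858, where no library reached Col-0, by 1.09 in log2 terms (adjusted p = 0.00750), and stood at -0.17 in 35S:rMYB83 (adjusted p = 0.665). JAZ8 (AT1G30135) and RRTF1 (AT4G34410), bound by WRKY40, rose in 35S:miR858 by 3.15 (adjusted p = 0.0111) and 3.38 (adjusted p = 0.0116). RRTF1 stood at 52.0, 81.2 and 6.67 CPM in 35S:miR858 roots, 17.2, 15.7 and 12.1 CPM in 35S:rMYB83 and 7.58, 1.45 and 4.22 CPM in Col-0, so that replicate 3 was again the low library of 35S:miR858.

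The phosphate transporters moved in opposite directions in 35S:miR858. PHT1;1, a target of WRKY42 and WRKY45, stood at 111 ± 12.2 CPM in 35S:miR858, 156 ± 23.0 CPM in 35S:rMYB83 and 169 ± 15.8 CPM in Col-0 (SD, n = 3), and fell in 35S:miR858 by 0.61 (adjusted p = 0.00771). PHO1, repressed by WRKY6 and WRKY42, stood at 465 ± 17.1 CPM in 35S:miR858, 522 ± 36.7 CPM in 35S:rMYB83 and 361 ± 53.7 CPM in Col-0, and rose by 0.36 in 35S:miR858 (adjusted p = 0.0443) and 0.53 in 35S:rMYB83 (adjusted p = 0.0125). The PHO1 call in 35S:rMYB83 was lost without replicate 2 of that line, and that in 35S:miR858 held only without Col-0 replicate 1 or 3 or 35S:rMYB83 replicate 1. ALMT1 (AT1G08430), a malate channel gene repressed by WRKY46, stood at 2.65, 4.28 and 2.84 CPM in 35S:rMYB83, 0.6, 1.15 and 0.646 CPM in 35S:miR858 roots and 0.862, 0.453 and 0.844 CPM in Col-0. It rose in 35S:rMYB83, whose libraries lay above all others, by 2.18 on the log2 scale (adjusted p = 0.00436). Against 35S:miR858 it was also higher, by 2.03 (adjusted p = 0.0187), a call lost without 35S:miR858 replicate 1 or 3 or 35S:rMYB83 replicate 2. GL2 (AT1G79840), a regulator of root hair patterning that is a target of WRKY44, rose in 35S:miR858 by 0.51 (adjusted p = 0.0173), a call lost without 35S:miR858 replicate 1.

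Some members share exon bases with a neighbour on the other strand, and whether reads were counted by strand is not stated. Among those called, the overlap was 251 bases for WRKY29, 311 for WRKY53, 51 for WRKY40, 49 for WRKY33 and 43 for WRKY2. AT4G23800, the neighbour of WRKY53, had a log2 value of -0.26 in 35S:miR858 (adjusted p = 0.172), against the rise of WRKY53. WRKY40 shared 2.27% of its 50-base words with a gene elsewhere and the other 55 members 0%.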

How the data were processed

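The deposited files hold raw counts per gene locus, made by the authors with HTSeq from TopHat2 2.0.14 alignments to TAIR10, after FastQC and Trimmomatic, per the submitters' processing notes. The sources used here give no settings and do not say whether strand was used. Per the labels' protocols, mRNA was isolated on magnetic beads and prepared with NEBNext kits. HTSeq's summary lines stayed out of library sizes. Reads in no feature made up 3.62% to 5.96% and ambiguous reads 1.72% to 2.08% of gene counts plus both classes. Gene counts per library were 5313656 to 10648857, and counting intervals cover counting error only.

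Counts of 9 libraries in 3 groups were fitted together with edgeR 4.0.16 in R 4.3.3 (default low-count filter, TMM scaling, quasi-likelihood test, Benjamini-Hochberg adjustment over 19496 genes, threshold 0.05), after the fit was tested on simulated data. Alternatives covered DESeq2 1.42.0, other scalings and filters, fewer groups or libraries, a replicate block and a shoot-tissue covariate. Figures were drawn with matplotlib 3.10.9. Names, coordinates and sequences came from RefSeq's TAIR10.1, in which all 56 members were found. Members and gene lists were chosen with earlier results of these data known. Up to 12 members passing per comparison were to be given in full, the 3 with the smallest p where fewer than 3 passed, and up to 4 per gene list, and other listed genes were named after their values were seen.

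Replicate libraries differed beyond sampling noise, so none was counted as a duplicate. Same-numbered libraries of different groups had correlations of their deviations from group means between -0.257 and 0.548, with 5 of 9 over 0.1. All 3 pairs of 35S:rMYB83 with Col-0 were over 0.1 (0.548, 0.241 and 0.141), which held in no other comparison. The fit whose calls are used throughout paired no libraries, and a replicate block was fitted only as an alternative. The unlike-numbered pair of Col-0 replicate 3 with 35S:rMYB83 replicate 2 stood at 0.464, above 0.241 and 0.141. The numbers therefore do not establish a pairing. Nothing in the labels says that a number marks a shared planting.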

Additional observations from a re-analysis of the deposited data

Results flagged for a closer look

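The effect against Col-0 of WRKY60 was larger in 35S:rMYB83 than in 35S:miR858 by 1.28 on the log2 scale, a difference that the direct comparison of the lines tested (edgeR quasi-likelihood test, Benjamini-Hochberg adjusted p = 0.00447). WRKY31 likewise differed by 1.36 between the effects of 35S:rMYB83 and 35S:miR858 (adjusted p = 0.00184 in the same test).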

How the results depend on the processing

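No member changed direction while called under any alternative tried. Scaling by library totals alone shifted the median of all genes by -0.144 in 35S:miR858 and -0.103 in 35S:rMYB83 (log2) and called 7 higher and 18 lower in 35S:miR858 and 1 higher and 14 lower in 35S:rMYB83. In 35S:rMYB83 against Col-0 the count of higher members was 2 with DESeq2-style size factors in edgeR, with no low-count filter and with a filter of 1 CPM in 3 libraries, and 3 with DESeq2 and without replicate 1 of both 35S:rMYB83 and Col-0. Asking for a fold of at least 2 left 4 lower there. In 35S:rMYB83 against 35S:miR858 DESeq2 called 3 lower (WRKY18, WRKY46 and WRKY48). With a replicate block over all 9 libraries 8 were higher and 11 lower in 35S:miR858, 1 higher and 11 lower in 35S:rMYB83, and 3 higher and 1 lower in 35S:rMYB83 against 35S:miR858. With a replicate block in only the 2 groups compared, an alternative chosen after seeing the data, 4 were higher and 9 lower in 35S:miR858, 4 higher and 11 lower in 35S:rMYB83, and 2 higher and 1 lower between the lines. In 35S:miR858 that block lost the rises of WRKY33, WRKY40, WRKY46 and WRKY53 and the falls of WRKY38, WRKY45 and WRKY58. Leaving out 1 library at a time gave 3 to 8 higher and 9 to 12 lower in 35S:miR858, 1 to 3 higher and 5 to 10 lower in 35S:rMYB83, and 2 to 3 higher and 0 to 5 lower between the lines. The cause of these shifts was not tested. Depth limited WRKY12, WRKY30, WRKY55 and WRKY62, which were not tested, and left WRKY38, WRKY43 and WRKY58 near 1 CPM or under it in the lines.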
